A study of Rattus norvegicus with 7 samples.

Results

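The S100 family of calcium-binding proteins was followed in the rat brain after an embolic stroke. The members set were S100a1, S100a4, S100a6, S100a8, S100a9, S100a10, S100a11, S100a13 and S100b, 9 genes in all, and each was taken through the probe that the platform annotation gives for its symbol. There were probes for 8 of the 9 members among 13337 genes with a probe, and S100a10 was left out. Every one of the 8 members had 1 probe. A level above the detection limit of the array was found for 7 members on at least 1 array and for 6 members on all 7 arrays.

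S100 proteins are small proteins of the EF-hand type. Most form dimers, change shape when they bind calcium and then attach to partner proteins such as annexins, myosin and other parts of the cytoskeleton. Several also leave the cell, and outside it they act as alarm signals that are read by the receptor for advanced glycation end products (RAGE, gene Ager) and Toll-like receptor 4 (Tlr4). In the brain S100B is made mainly by astrocytes and by part of the oligodendrocytes, and its protein in blood is used as a marker of brain injury, whereas S100A8 and S100A9 are abundant proteins of neutrophils and monocytes.

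The study used Wistar rats, male and 280 to 320 g in weight, in which an embolus was placed in the middle cerebral artery (eMCAo), and the study followed them through spontaneous reperfusion. There were 7 Illumina bead arrays, 1 for normal rats without surgery and 1 each for 12, 24, 48, 72, 120 and 168 hrs after eMCAo, and the labels call the last pair 5day and 7day. No treatment was given, each array took 400 ng of total RNA, and the labels give neither the brain region taken nor the number of animals behind an array. All 7 are labelled as ischemic brain, the normal array included.

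Each group had 1 array, so that a difference from normal carries no SD and no test, and precision is limited by this number. A member was called higher or lower when its background-corrected and normalized level was at least 2-fold away and it was detected on either array, which is a rule of size. As a yardstick, the closest arrays, 120 and 72 hrs, differed with an SD of 0.31 (log2) over 8646 genes, and levels nearer to each other than this were not put in order. All 8 neuron markers were detected on every array, as the brain label implies. Genes of blood and of particular brain regions differed between arrays. The summed intensity of 4 erythrocyte genes was 10869, 5688, 1446, 1445, 190 and 88.7 at 12 to 168 hrs against 432 on the normal array. That of 5 choroid plexus genes was 18535, 8497, 1826, 1689, 1983 and 5455 against 5536. That of 5 hypothalamus genes was between 864 and 7308 after eMCAo against 302. The part of these differences in the S100 values was not tested, and in bulk tissue fewer cells of a type and less RNA per cell cannot be told apart.

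The promoters of 4 members on which the results turn are shown as the 250 bases before the start of the gene (RefSeq, build GRCr8). S100a4, S100a6 and S100a11, which were higher together, lie on chromosome 2, where all the S100a members lie. S100b, which was lower at 24 and 48 hrs, lies on chromosome 20. Capitals mark matches, on either strand, to 3 motifs: the NF-kB type (GGG, any 5 bases, then CC), the C/EBP type TTNNGNAA and the TATA box TATAAA. The windows are chr2:178388279-178388528 on the plus strand for S100a4, chr2:178398287-178398536 on the plus strand for S100a6, chr2:181874882-181875131 on the plus strand for S100a11 and chr20:12381082-12381331 on the minus strand for S100b.
S100a4: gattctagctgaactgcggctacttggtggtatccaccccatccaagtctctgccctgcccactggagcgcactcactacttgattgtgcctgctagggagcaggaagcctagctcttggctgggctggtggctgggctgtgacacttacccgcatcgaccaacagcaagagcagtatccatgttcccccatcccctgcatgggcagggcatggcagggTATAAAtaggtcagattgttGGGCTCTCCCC
S100a6: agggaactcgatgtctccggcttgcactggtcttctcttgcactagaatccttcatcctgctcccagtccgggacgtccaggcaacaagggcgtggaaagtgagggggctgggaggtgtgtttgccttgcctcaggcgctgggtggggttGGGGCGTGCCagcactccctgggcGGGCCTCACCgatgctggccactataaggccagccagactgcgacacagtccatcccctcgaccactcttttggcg
S100a11: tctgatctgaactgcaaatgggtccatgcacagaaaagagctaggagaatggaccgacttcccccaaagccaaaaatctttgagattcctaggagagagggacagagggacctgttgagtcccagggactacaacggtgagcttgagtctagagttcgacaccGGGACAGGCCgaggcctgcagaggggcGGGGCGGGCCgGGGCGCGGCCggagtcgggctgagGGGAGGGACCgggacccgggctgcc
S100b: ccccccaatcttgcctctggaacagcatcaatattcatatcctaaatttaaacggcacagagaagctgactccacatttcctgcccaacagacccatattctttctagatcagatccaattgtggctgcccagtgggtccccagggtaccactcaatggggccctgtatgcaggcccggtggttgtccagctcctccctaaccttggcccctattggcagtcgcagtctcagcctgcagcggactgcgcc

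S100a4 held 2 overlapping matches to the NF-kB type and a TATAAA that began 31 bases before the start, S100a6 held 2 such matches and S100a11 held 4. No match stood in the S100b window. The NF-kB type was found in 42.3% of 33469 promoter windows of the same length and TATAAA in 12.9%, so the first is common and its presence is a description only. TTNNGNAA (37.2% of windows) and the AP-1 type TGANTCA (6.34% of windows) had no match in these 4 windows. Promoters were found for 6 of the 8 members with a probe, and of the others S100a9 held 1 TATAAA and 1 TTNNGNAA and S100a13 held none of the 4 motifs. S100a1 and S100a8 had no entry.

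S100a4, S100a6 and S100a11 formed a group whose levels were far above normal from 24 hrs and still above it at 168 hrs. The arrays of highest level were 48 and 72 hrs for S100a4 and S100a6 and 72 and 120 hrs for S100a11. Neither pair could be put in order. For S100a11 the 48 hrs array lay within the yardstick of 120 hrs but 0.52 (log2) below 72 hrs, which is past it. S100A4, also called metastasin, binds non-muscle myosin heavy chain and is found in motile cells, fibroblasts and white blood cells. Its probe gave intensities of 183 on the normal array and 244, 1606, 4406, 5125, 2759 and 1249 at 12, 24, 48, 72, 120 and 168 hrs. The 12 hrs and normal arrays stood together and the 5 later arrays stood above both. In normalized levels S100a4 was 1.23-fold, 7.23-fold, 19.2-fold, 18.8-fold, 11.0-fold and 5.78-fold higher than normal at 12 to 168 hrs.

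S100A6, or calcyclin, binds annexins and the calcyclin-binding protein. It gave 105 on the normal array and 177, 626, 1406, 1862, 949 and 528 at 12 to 168 hrs. Its folds over normal were 1.48, 4.52, 10.3, 11.3, 6.37 and 4.14, so that every array from 24 hrs onward was past the 2-fold rule and the 12 hrs array was not. The 48 and 72 hrs levels lay closer than the yardstick, as they did for S100a4, and the order of this pair is not resolved for either gene. For S100a4 the higher of the pair was 48 hrs by 0.03 (log2) after quantile normalization, and 72 hrs with median scaling, without normalization and on the deposited values.

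S100A11, or calgizzarin, is the partner of annexin A1 and takes part in membrane repair and growth control of epithelial cells. It gave 158 on the normal array and 434, 1503, 3198, 5470.1, 4068 and 1283 at 12 to 168 hrs. It was 2.41-fold, 7.71-fold, 15.97-fold, 22.9-fold, 18.7-fold and 6.77-fold higher than normal, and it was the member of this group that had passed 2-fold by 12 hrs. At 72 hrs it ranked 11 among 9409 genes ordered by their log2 difference from normal, where S100a4 ranked 19 and S100a6 ranked 47.

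**Figure D1:**
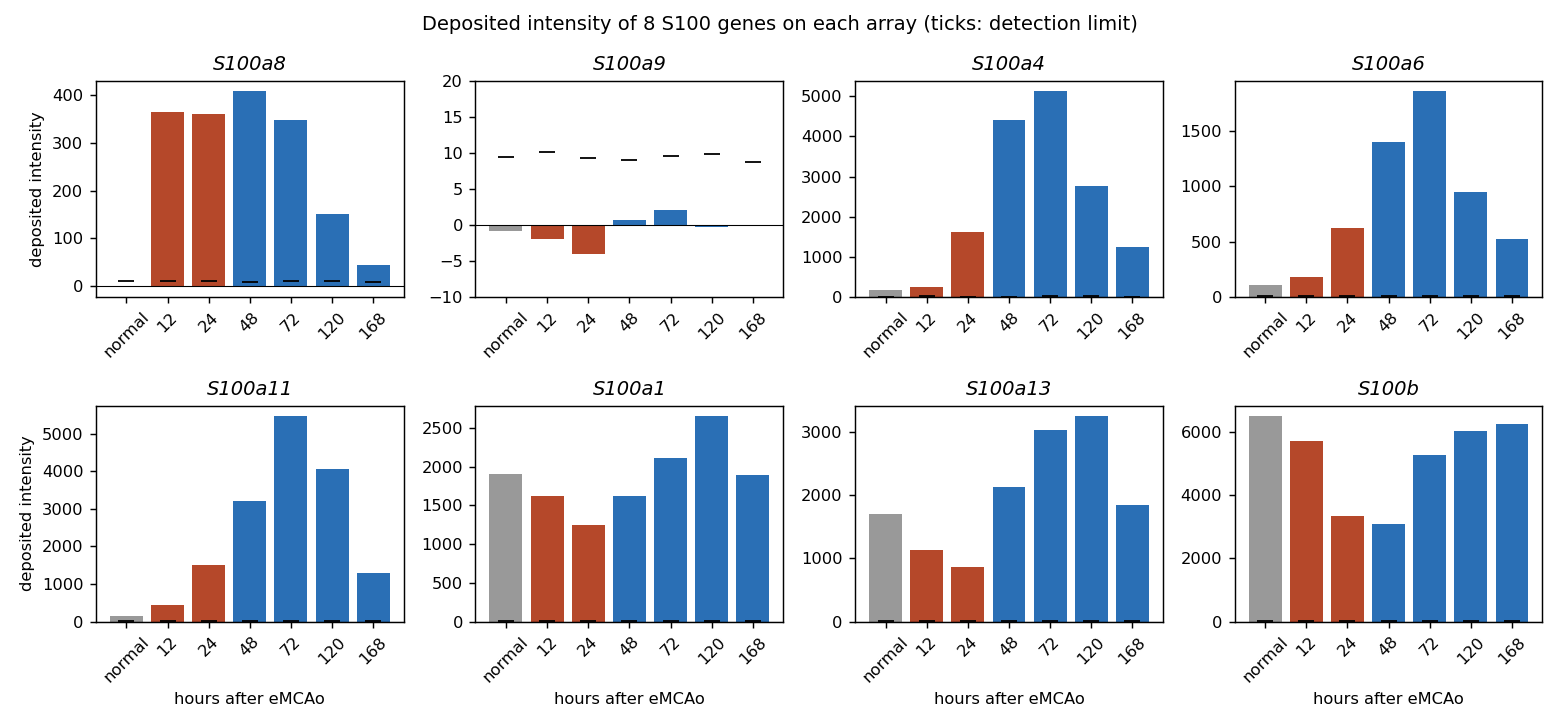
Deposited, background-subtracted intensity (vertical axis, linear, a separate scale for each gene) of the 8 S100 members on the normal array (grey), the 12 and 24 hrs arrays (red) and the 48 to 168 hrs arrays (blue), with 1 array per bar, no error bars and black ticks at the detection limit. S100a4, S100a6 and S100a11 are tallest at 72 hrs (5125, 1862 and 5470.1), S100b is tallest on the normal array (6494), and S100a9 stays under the limit on all 7 arrays.

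S100a8, by contrast, was high at the first time measured. S100A8 pairs with S100A9 to form calprotectin, which binds zinc and manganese as well as calcium. The S100a8 probe gave -2.42 on the normal array, below the detection limit, and 366, 361, 409.5, 348, 151 and 43.7 at 12, 24, 48, 72, 120 and 168 hrs. The 4 arrays from 12 to 72 hrs followed one another within the yardstick when placed in order of level, the 120 hrs array lay below them, and the 168 hrs array lay lower again. Set against the lowest detected level of the normal array, S100a8 was at least 11.0-fold, 10.3-fold, 11.8-fold, 8.85-fold, 4.33-fold and 1.997-fold higher in order of time. The fitted log2 differences, 4.06 at 12 hrs and 1.60 at 168 hrs, depend on the offset added before the logarithm, and with an offset of 50 the value at 168 hrs was 0.89, short of 2-fold.

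S100a9, the partner in calprotectin, was not detected on any of the 7 arrays, with intensities of -0.818 on the normal array and -1.98, -3.99, 0.705, 2.10, -0.320 and 0.0567 at 12 to 168 hrs. Detection limits were 8.72 to 10.1. The S100a9 probe therefore gives no fold, and whether it can report its transcript was not tested.

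S100b was lower than normal at 24 and 48 hrs and near it at the ends of the course. It gave 6494 on the normal array and 5694, 3335, 3068, 5255, 6021 and 6240.2 at 12 to 168 hrs. The 24 and 48 hrs arrays were low together, and the other 5 followed one another within the yardstick up to normal. S100b was lower than normal by 2.07-fold at 24 hrs and by 2.25-fold at 48 hrs. At 12, 72, 120 and 168 hrs its log2 differences from normal were -0.19, -0.64, -0.35 and -0.15. Without normalization between arrays the 24 hrs difference was -0.96, just inside 2-fold, while the 48 hrs difference stayed past it.

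S100a13 was lower than normal at 12 and 24 hrs and above it at 72 and 120 hrs. The 48 and 168 hrs arrays (log2 differences of 0.26 and 0.06) lay within the yardstick of normal. S100A13 is needed for the release of FGF1 and interleukin-1 alpha, which leave the cell without a signal peptide. Its probe gave 1701 on the normal array and 1125, 868, 2120.5, 3027, 3252 and 1842 at 12 to 168 hrs. The 12 and 24 hrs arrays lay below all the others, and the 48, 72 and 120 hrs arrays followed one another within the yardstick. It was 2.08-fold lower than normal at 24 hrs (log2 difference -1.06, and -0.95 without normalization) and stood 0.72 above normal at 120 hrs, short of 2-fold.

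S100a1, whose protein acts on ryanodine receptors and calcium pumps of muscle, changed little. It gave 1902 on the normal array and 1618, 1243, 1628, 2111, 2656 and 1899.5 at 12 to 168 hrs, and no time passed 2-fold. Its lowest level was at 24 hrs (-0.68 from normal), and the 120 hrs array, 0.28 above normal, was within the yardstick of the normal array. At 72 hrs the sign of its difference depended on the scaling, from -0.14 to 0.15. The lowest levels of S100a1, S100a13 and S100b thus stood at 24 to 48 hrs, when S100a4, S100a6 and S100a11 were already 4.52-fold or more above normal.

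Counted over the 7 members detected, 2 were at least 2-fold higher than normal at 12 hrs (S100a8 and S100a11), against 3.16% of all genes tested. At 24 hrs 4 members were higher (S100a4, S100a6, S100a8 and S100a11), against 4.55% of genes, and 2 were lower (S100a13 and S100b), against 2.69%. At 48 hrs the same 4 were higher, against 6.04%, and S100b was lower, against 2.63%. At 72, 120 and 168 hrs the 4 were again higher, against 8.28%, 9.09% and 5.01% of genes, and no member was lower, against 4.01%, 4.78% and 0.914%. The count of 4 at 168 hrs includes S100a8, whose bound there is 1.997-fold, and with an offset of 50 it was 3. At 12 hrs no member was lower, against 0.903%. The median log2 difference of the 7 members was 0.29, 2.18, 3.36, 3.49, 2.67 and 1.60 in order of time. With S100a8 at its bound it was 3.14 at 72 hrs, 2.11 at 120 hrs and 0.998 at 168 hrs and unchanged before, and over all genes tested the median was between -0.07 and -0.02.

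**Figure D2:**
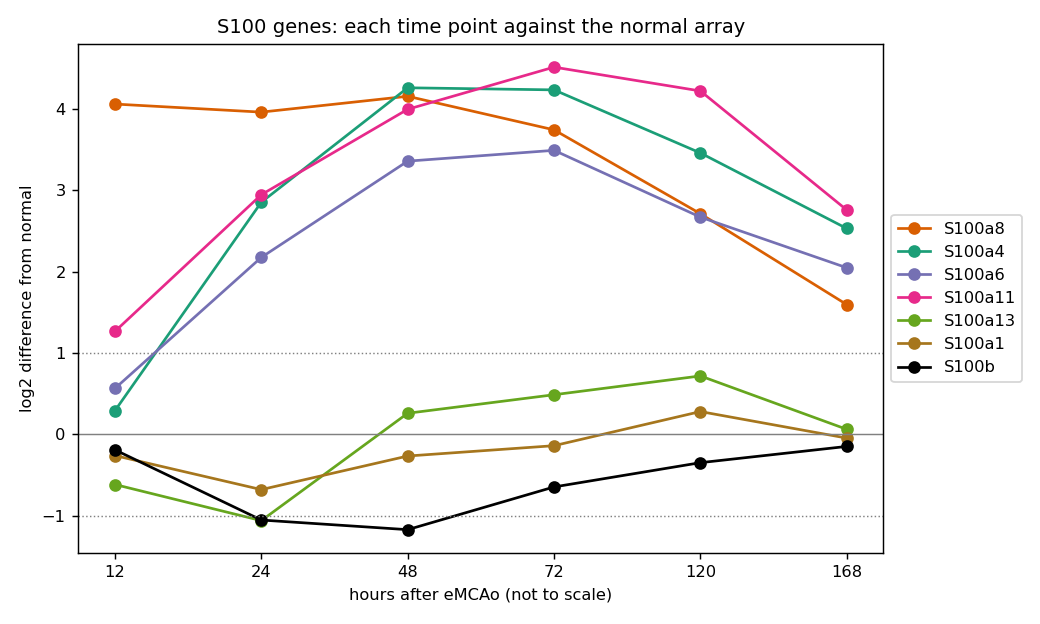
Log2 difference of each eMCAo array from the normal array (vertical axis) at 12 to 168 hrs (horizontal axis, evenly spaced) for the 7 detected members, 1 array per point, with dotted lines at 2-fold. S100a4, S100a6 and S100a11 reach 4.26 (48 hrs), 3.49 (72 hrs) and 4.52 (72 hrs), S100a8 starts at 4.06 and declines after 72 hrs, S100b is low at 24 and 48 hrs (-1.05 and -1.17), and S100a13 and S100a1 are lowest at 24 hrs (-1.06 and -0.68).

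Steps between neighbouring times placed the changes. These comparisons share arrays with each other. At 24 hrs against 12 hrs S100a4 was 5.90-fold, S100a11 3.20-fold and S100a6 3.05-fold higher, and 1.25% of all genes were at least 2-fold higher. No member was 2-fold lower at this step, against 1.21% of genes. At 48 hrs against 24 hrs S100a4 (2.65-fold), S100a13 (2.496-fold), S100a6 (2.27-fold) and S100a11 (2.07-fold) were higher, against 1.64% of genes, and no member was lower, against 0.712%. At 72 hrs against 48 hrs no member passed 2-fold in either direction, against 1.35% of genes higher and 0.7% lower.

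The decline came later. At 120 hrs against 72 hrs only S100a8 was at least 2-fold lower (2.04-fold), against 0.552% of genes, and none was higher, against 0.839%. At 168 hrs against 120 hrs S100a11 (2.76-fold) and S100a8 (2.17-fold) were lower, against 1.87% of genes, none was higher, against 0.655%, while S100a4 was 1.90-fold and S100a6 1.54-fold lower. Without normalization between arrays the S100a4 step was -1.13, past 2-fold. With an offset of 50 both S100a8 steps were short of 2-fold (-0.90 and -0.85). At 168 hrs the log2 level relative to the highest array of each gene was -1.73 for S100a4, -1.44 for S100a6, -1.76 for S100a11, -2.56 for S100a8 and -0.15 for S100b.

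The study divides the course into an acute and a recovery phase, and the recovery arrays (48, 72, 120 and 168 hrs) were set against the acute arrays (12 and 24 hrs) with limma, the one comparison with more than 1 array on each side. The spread it uses is between times of a phase and not between animals. No member passed an adjusted p of 0.05, and 0 of 9449 genes did (0% higher and 0% lower), although 2212 had an unadjusted p under 0.05. S100a13 came nearest, with a mean log2 level of 11.24 in recovery and 10.02 in the acute phase, a difference of 1.22 ± 0.21 (SE, limma adjusted p = 0.078). All 4 of its recovery arrays lay above both acute arrays, and without the 48 hrs array it passed (limma adjusted p = 0.037), in a fit where 571 of 9338 genes passed.

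S100a4 stood 2.05 ± 0.75 higher in recovery (SE, limma adjusted p = 0.17), S100a11 1.77 ± 0.59 (0.14 by the same test) and S100a6 1.52 ± 0.54 (0.16). The 24 and 168 hrs arrays did not separate the phases in these 3 genes. For S100a4 the 24 hrs array (log2 level 10.72) lay above the 168 hrs array (10.40) by barely more than the yardstick, and for S100a6 and S100a11 this pair was closer than the yardstick. Without the 12 hrs array the differences were 0.77 for S100a4, 0.93 for S100a11 and 0.72 for S100a6, and without the 24 hrs array 3.33, 2.61 and 2.33, none of them past the threshold. S100a1 gave 0.43 ± 0.19 (limma adjusted p = 0.23), S100a8 -0.96 ± 0.66 (0.41) and S100b 0.04 ± 0.33 (0.95). The estimate for S100b had the opposite sign, from -0.39 to -0.03, when the 24, 120 or 168 hrs array was left out.

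**Figure D3:**
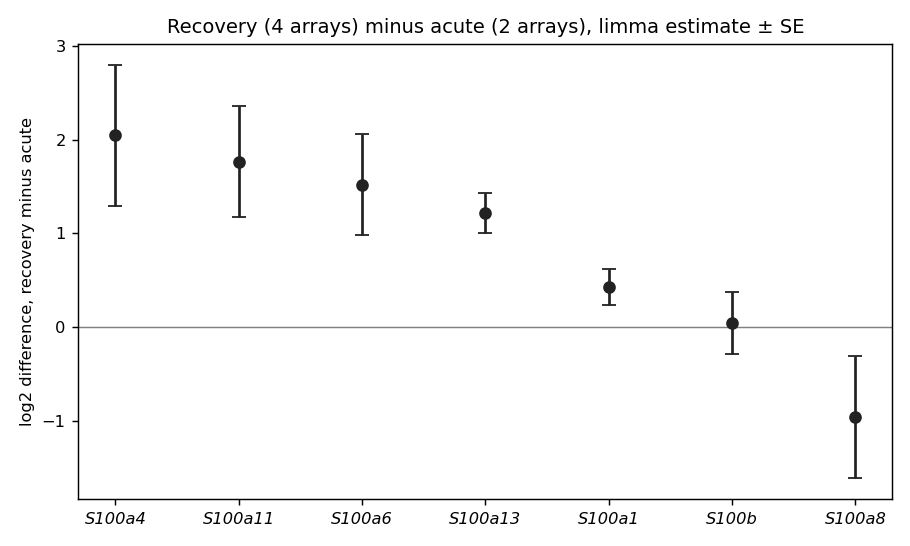
Difference in mean log2 level, recovery (48, 72, 120 and 168 hrs, 4 arrays) minus acute (12 and 24 hrs, 2 arrays), for the 7 detected members, where points are limma estimates and bars are SE. S100a4, S100a11, S100a6 and S100a13 lie at 2.05, 1.77, 1.52 and 1.22, S100a13 has a short bar (0.21), and S100b lies at 0.04.

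The partners and receptors of S100 proteins were read from a list of 43 genes, 39 of them with a probe. At least 2-fold higher than normal were 8 of 34 detected at 12 hrs, 10 of 36 at 24 hrs, 10 of 35 at 48 hrs, 9 of 33 at 72 hrs, 10 of 33 at 120 hrs and 7 of 34 at 168 hrs, and their median log2 difference was between 0.07 and 0.30. The background shares are those given for each time above. Lower were 1 gene at 24 hrs and 1 at 48 hrs, in both cases Aldoc, the brain aldolase that binds S100B (-1.10 and -1.05).

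Among the partners that were higher at all 6 times were 2 of 5 annexins. Anxa1, the annexin bound by S100A11, gave 88.9 on the normal array and 229.9, 571, 835, 1424, 933 and 418 at 12 to 168 hrs, from 2.15-fold higher at 12 hrs to 9.997-fold at 72 hrs. Anxa2, the annexin bound by S100A10, gave 92.5 on the normal array and 464, 930.3, 1016, 1436, 976 and 357, and was 9.79-fold higher at 72 hrs. The other annexins, Anxa5, Anxa6 and Anxa11, did not pass 2-fold at any time. Of the intermediate filament genes that S100B binds, Gfap of astrocytes was 2.61-fold to 4.97-fold higher than normal at all 6 times, and Vim was at least 3.07-fold higher at the 5 times from 24 hrs and 1.36-fold at 12 hrs. Tpm4, a tropomyosin, passed 2-fold at 4 times.

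The receptors did not move together. Ager, which encodes RAGE, gave 8.28 to 26.8 across the arrays and was not detected at 48 hrs. Its log2 differences from normal were within -0.37 to 0.16. Tlr4 was not detected on the normal and 12 hrs arrays and gave 15.3 to 32.1 later, and no time passed 2-fold. The processing understates folds this near the limit, so these values do not show that Ager and Tlr4 were unchanged. Cd36, a scavenger receptor, passed 2-fold at 4 times. Bsg, which encodes the receptor basigin, was detected on all 7 arrays (474 to 613) and did not pass 2-fold at any time. Genes of the inflammatory answer in the list, Cxcl1, Il1b and Nfkbia, were higher at all 6 times, Il1a at 4, Il6 at 1 and Tnf at none. Il1a, Il6 and Tnf were not detected on every array, so these counts do not show that Tnf was unchanged. Il1b was highest at 48 hrs (27.3-fold) and Cxcl1 at 12 hrs (23.4-fold). Of the partners with a direct role, Myh9 (the heavy chain bound by S100A4), Cacybp (calcyclin-binding protein), Fgf1 and Syt1 (the cargo of S100A13 and its partner in release) and Capzb (bound by S100B) did not pass 2-fold at any time. Among these, Fgf1 alone was not detected on every array, and the same limit holds for it.

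Profiles over the 7 arrays were compared as a description, since the points share arrays and neighbouring times. S100a4 and S100a6 had r = 0.995, S100a6 and S100a11 r = 0.977, and S100a4 and S100a11 r = 0.969 (n = 7 arrays). S100a8 had r between 0.52 and 0.59 with these 3, S100a1 and S100a13 had r = 0.83, and S100b had r between -0.61 and -0.72 with S100a4, S100a6, S100a8 and S100a11. Among other genes, the most like S100a4 were Fcnb (r = 0.992), a ficolin of the neutrophil list, Vim (0.990) and Vamp5 (0.987), a vesicle protein. For S100a6 they were Vim (0.990), Vamp5 and Clec4a2 (both 0.989), a lectin receptor of myeloid cells. For S100a11 they were Anxa1 (0.994), Slc66a3 (0.994) and Ms4a6a (0.993). Fcnb and Clec4a2 were not detected on the normal and 12 hrs arrays, so their r rests partly on levels under the limit. Likeness of this kind was common, with 40, 39 and 103 genes at r of 0.95 or more to S100a4, S100a6 and S100a11.

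The genes most like S100a8 were Ccl3 (r = 0.989), a chemokine, Nfkbia (0.988), the NF-kB inhibitor, and Cebpb (0.987), a transcription factor of myeloid cells, and 23 genes had r of 0.95 or more. Ccl3, like S100a8, was not detected on the normal array. S100a13 was most like Tnfaip8 (0.974), Aqp4 (0.968), the water channel of astrocyte end feet, and Pgm5 (0.963). S100b was most like Slc6a9 (0.977), the glycine transporter of astrocytes, Gprc5b (0.974) and Abhd3 (0.972). Slc6a9 gave 395 on the normal array and 341, 189, 187, 285, 356 and 306 at 12 to 168 hrs, low at 24 and 48 hrs as S100b was.

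Marker lists of cell types that make S100 proteins moved beside the members. Of 14 neutrophil genes 13 had a probe. Beside S100a8, the number detected was 5 to 7 after eMCAo against 1 on the normal array. Over all 22523 probes, 12424 to 12959 were detected after eMCAo against 12350 on the normal array. Of the neutrophil genes detected on either array, 2 of 5, 3 of 7, 3 of 7, 4 of 6, 4 of 6 and 2 of 6 were at least 2-fold higher than normal at 12 to 168 hrs. Between 3.16% and 9.09% of all genes tested were higher at these times. The summed intensity of the neutrophil list was 468, 822, 719, 729, 568 and 174 at 12 to 168 hrs against 59.8 on the normal array. Il1r2, the decoy interleukin-1 receptor, gave 127, 304, 283, 262, 103 and 16.7 at these times and -1.44 (not detected) on the normal array. Mmp9 gave 272, 351, 256, 176, 71.9 and 37.7 against 48.5 and was thus back near normal at 120 hrs, when S100a8 was not. Mmp8 was highest at 120 hrs (170.4). Elane, Ngp, Ltf, Fpr1 and Padi4, among them defining genes of neutrophil granules, were not detected on any array. The part of these cells in the S100a8 values was not tested.

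Beside S100a4, S100a6 and S100a11, 3 to 6 of 8 macrophage genes were at least 2-fold higher than normal at each time, with a summed intensity of 2328, 4773, 6826, 11271, 17190.2 and 10548 at 12 to 168 hrs against 1821 on the normal array. Of 7 fibroblast genes 0, 1, 1, 5, 6 and 5 were higher, with sums of 1911, 2851, 4185, 8846, 11992 and 6270.1 against 2621, and of 4 microglia genes 0, 0, 0, 1, 3 and 2. The same microglia genes counted 1 lower at 12 hrs and 1 at 24 hrs, and their sum was 81.3, 118, 281, 769, 1446 and 838 against 205. These 3 lists had their highest sums at 120 hrs, where S100a4 and S100a6 were below their 72 hrs level and S100a11 was within the yardstick of it. At 120 hrs 15324 of the macrophage sum was Aif1, which gave 1661 on the normal array. Cd14 of the same list was higher at 24 hrs (1965) than at 120 hrs (610). The median log2 difference of the macrophage list was 2.22 at 72 hrs and 2.23 at 120 hrs. Of 6 mural cell genes 3 had a probe and Rgs5 was not detected on any array, and their sum was 288, 1629, 1689, 2081, 817 and 475 against 259.5, with 0, 1, 1, 1, 2 and 1 of the 2 detected genes higher. Most of the mural sum at 24 to 72 hrs was Tagln, which encodes a smooth muscle actin-binding protein (1465, 1532 and 1823 against 134 on the normal array). Over all genes tested, 3.16%, 4.55%, 6.04%, 8.28%, 9.09% and 5.01% were at least 2-fold higher at 12 to 168 hrs. At 12 and 24 hrs 0.903% and 2.69% were lower. No macrophage, fibroblast or microglia gene of the lists with a probe was undetected throughout. The part of all these cells in the S100 values was not tested.

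Beside S100b, 7, 3 and 2 of 9 oligodendrocyte genes were at least 2-fold lower than normal at 24, 48 and 72 hrs and none at the other times, and the sum of the list was 28294, 14854, 16223, 26680.4, 24274 and 26998 at 12 to 168 hrs against 30924 on the normal array. Mbp, the myelin basic protein gene, gave 3441 at 24 hrs and 3065 at 48 hrs against 6691 on the normal array. Of 9 astrocyte genes 3, 3 and 2 were lower at 24, 48 and 72 hrs, and Gfap was the 1 that was higher at every time. Over all genes tested, 2.69%, 2.63% and 4.01% were at least 2-fold lower at 24, 48 and 72 hrs. Between 3.16% and 9.09% were higher at the times after eMCAo. The sum of the astrocyte list, of which Gfap is a part, was 31405, 35805, 38309.6, 46192, 44680.2 and 35824 against 31682. The median log2 difference of the astrocyte list was nevertheless below normal at every time, between -0.77 (24 hrs) and -0.38 (12 hrs). All 9 genes of each list were detected on every array. The median of 8 neuron markers was lowest at 120 hrs (-0.90), when S100b was at -0.35. The part of each cell type in the S100b and S100a13 values was not tested.

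**Figure D4:**
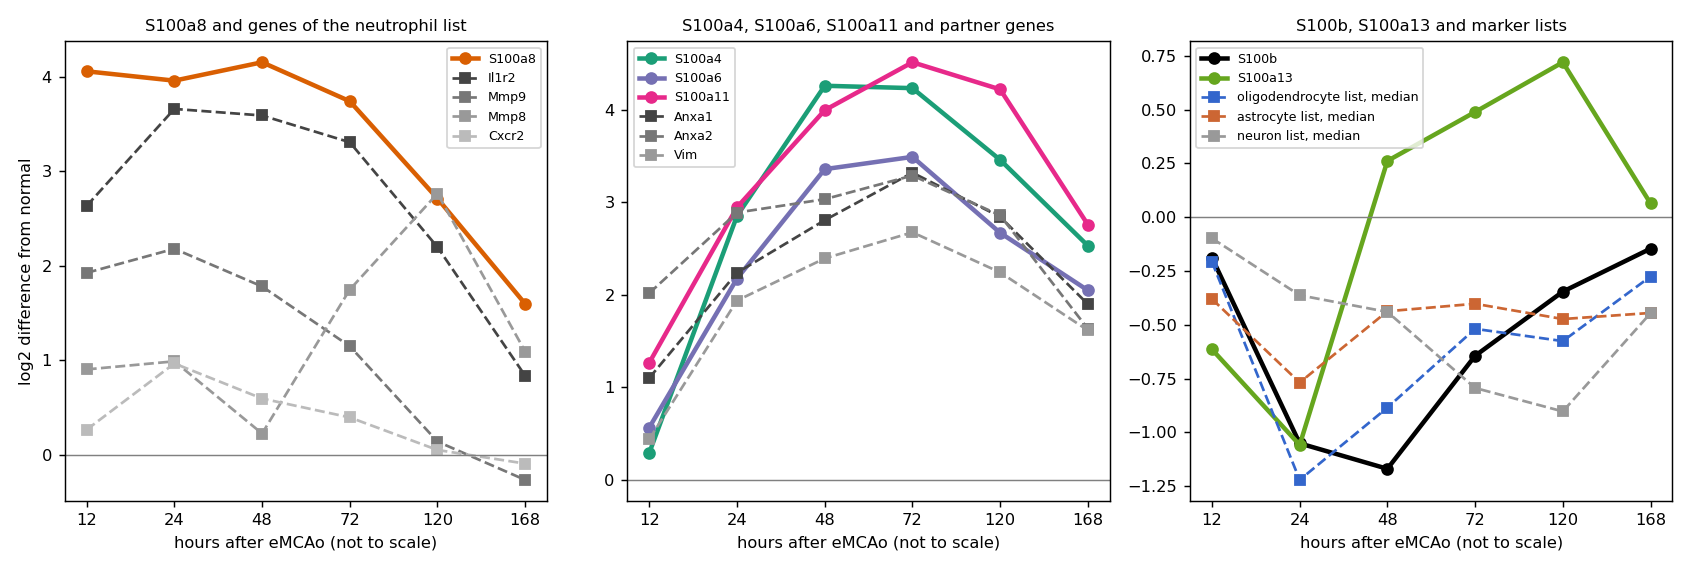
Log2 difference of each eMCAo array from the normal array at 12 to 168 hrs (horizontal axis, evenly spaced), 1 array per point, with members as solid lines and partners, markers or medians of marker lists as dashed lines. At the left S100a8 is 4.06 at 12 hrs and 1.60 at 168 hrs. S100a8, Il1r2, Mmp8 and Cxcr2 were not detected on the normal array, so that their heights depend on the offset and have no order. In the middle S100a4, S100a6, S100a11, Anxa1, Anxa2 and Vim are all higher at 24 hrs than at 12 hrs and lower at 168 hrs than at 72 hrs. At the right S100b and the oligodendrocyte median (-1.22 at 24 hrs) are low at 24 to 48 hrs, while S100a13 is above normal by more than the yardstick at 72 and 120 hrs.

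The platform held 5 other S100 genes, of which 3 were detected on at least 1 array. S100a3, known as a gene of the hair cuticle, gave 62.0 on the normal array and 138, 149.6, 251, 282, 399.6 and 205 at 12 to 168 hrs. It was 2.87-fold, 2.80-fold, 4.03-fold and 2.48-fold higher than normal at 48, 72, 120 and 168 hrs, and its highest array, 120 hrs, came later than those of its neighbours on chromosome 2, S100a4 and S100a6. S100a16 was detected on all 7 arrays and stayed within 2-fold of normal (log2 differences of -0.44 to 0.62). S100a5 passed its limit at 72 hrs alone, and S100g and S100z were not detected. S100a4, S100a5 and S100a6 stand side by side in the gene order of the chromosome, with S100a8 and S100a9 after them. Of these neighbours S100a4 and S100a6 were 18.8-fold and 11.3-fold higher at 72 hrs, S100a8 was at least 8.85-fold higher, and S100a5 (11.3 at 72 hrs) and S100a9 stayed near or below the limit.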

How the data were processed

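Gene levels were taken from the intensity values that the authors deposited, 1 column per array, background-subtracted, with 20.8% to 21.9% below 0. The methods name BeadStudio and a 5S rRNA normalization without saying for which arrays, and GenomeStudio 1.8.0 is named in the submitters' processing notes. A further table of 48 columns (12 arrays) matched no sample and was not used.

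With limma 3.58.1 (R 4.3.3) the normal-exponential background model was fitted per array, 16 was added before log2, and arrays were quantile normalized, which understates the folds of dim genes. A probe was detected above the 98th percentile of its array's mirrored negative values, a limit of 8.72 to 10.1. A gene not detected on the dimmer array was set against that array's lowest detected level and is written "at least". Each gene was its brightest probe. The phases were fitted with lmFit and tested with eBayes (trend and robust, two-sided) over the 9449 genes that at least 2 of the 6 eMCAo arrays detected, and p-values were adjusted by Benjamini-Hochberg at 0.05. The fit was also run on simulated data with independent noise on each array. That setting has no trend over time within a phase, so it cannot show how the fit behaves on these arrays.

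All members with a probe were named, with partners of a direct role or 2-fold from normal at 3 or more times, and the 3 genes of highest Pearson r to each member with a log2 range of at least 1. The members and lists were chosen with earlier results of these data known. Alternatives were median scaling, no normalization, no background model, deposited values, offsets of 50 and 1, limits of 1.5-fold and 3-fold, other detection filters, the mean of probes and leaving out each array.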

Additional observations from a re-analysis of the deposited data

How the results depend on the processing

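No called member difference changed sign with median scaling, no normalization, no background model or offsets of 50 and 1. The sign was not checked on the deposited values. Of the counts, 150 of 162 stayed within 1.5 times. With a limit of 3-fold, 1 member was higher at 12 hrs and 0 were lower at 24 hrs and at 48 hrs. With a limit of 1.5-fold, 1 was lower at 12 hrs and 1 at 72 hrs. Without normalization and on the deposited values, 0 were lower at 24 hrs, where S100a13 (-0.95) and S100b (-0.96) fell just short of 2-fold without normalization. That setting put the median of all genes at 0.18 at 72 hrs and 0.13 at 120 hrs, against -0.06 and -0.07. Of the values of single members against normal, 264 stayed within 0.31 (log2) and 24 moved further, most of them S100a8, which was not detected on the normal array and whose 12 hrs difference ran from 2.93 (offset 50) to 5.34 (offset 1). The values that stayed include the mean of probes, which could not differ for a member, so they overstate the agreement. S100a9, never detected, is among the members counted here. The differences between neighbouring times were chosen after seeing the data.

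Between recovery and acute arrays the count of members was 0 to 1 when single arrays were left out, and the 1 was S100a13 without 48 hrs. The count of genes was 13 over all genes, 6 over genes detected on all 6 arrays, and 0 to 571 when single arrays were left out (571 without 48 hrs, 2 without 24 hrs). The S100b difference ran from -0.39 to 0.47 in these fits, with -0.39 without 24 hrs, -0.03 without 120 hrs and -0.10 without 168 hrs. The S100a4 difference was 0.77 without 12 hrs and 3.33 without 24 hrs. The cause was not tested. No paired analysis was possible because each group had 1 array. The probe alternative could not differ, since every member had 1 probe.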
